A study of Mus musculus with 10 samples.

Results

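Serum vesicles from mice with a nerve injury were set against serum vesicles from sham-operated mice, with the transcripts of the microglia that received them as the readout. Microglia are the brain's own macrophages, and those used here were primary cells from the cortex of CD-1 mouse pups at postnatal days 2 to 4. In the SNI-sEV group, 3 libraries came from cells given 1 µg of serum small extracellular vesicles (sEVs), isolated from mice after spared nerve injury (SNI). In the sham-sEV group, 3 libraries came from cells given the same amount of sEVs from sham-operated mice. SNI is a surgical model of lasting neuropathic pain that severs some branches of the sciatic nerve and spares another. Small EVs are membrane-bound particles that carry protein and RNA between cells through body fluids. SNI and sham exposures alike lasted 24 h, in medium whose fetal bovine serum had been depleted of exosomes. A further 4 libraries from cells with phosphate-buffered saline (PBS) in place of vesicles gave the untreated level and shared in the estimate of the spread. The comparison thus rests on 6 of the 10 libraries of the series. It covers 14806 of 32074 genes, those whose level averaged 1 TPM (transcripts per 1e+06, a share of each library's total) or more over all 10 libraries.

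Macrophages that sense microbial or damage signals activate NF-kappaB, a transcription factor that turns on cytokines, chemokines and the inducible enzymes of prostaglandin and nitric oxide synthesis. Type I interferon, released by the same cells, acts through STAT factors on a further set of antiviral genes. Such activation is known to reduce proliferation and the expression of genes of the surveying state, such as the receptors Cx3cr1 and Trem2, and spinal microglia that release inflammatory cytokines are known to take part in neuropathic pain.

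The labels call the libraries biological replicates but tie none to a separate culture or vesicle isolation. The p-values therefore measure the spread between these libraries alone. The strain, sex and time after surgery of the serum donors are not given in the sources used here. Pearson's r of log2(TPM + 1) over genes ran from 0.930 to 0.936 for pairs of an SNI-sEV and a sham-sEV library. Within the groups it ran from 0.995 to 0.996 (SNI sEV), 0.996 to 0.997 (sham sEV) and 0.987 to 0.996 (PBS). These values are a description over genes that are not independent. The cells expressed their labelled type's markers in both groups. The 16 marker genes of microglia summed to 25373 to 27299 TPM in the SNI-sEV libraries and 24053 to 24823 TPM in the sham-sEV libraries. Behind these similar sums single markers moved in opposite directions: 7 were higher in SNI sEV, 6 lower and 3 did not pass the test. Among all genes tested, 49.9% were higher and 15.7% lower. Csf1r, the receptor on which microglia depend for survival, was at 846, 713 and 714 TPM with SNI sEVs and 645, 654 and 618 TPM with sham sEVs and did not pass the test. Csf1r had a log2 difference of 0.24 ± 0.10 (SE, limma adjusted p = 0.055). Csf1r passed in 5 of 20 alternatives, with quantile normalization (log2 difference 0.28), with library weights (0.18), and in the fit of the 6 libraries alone, with the replicate block and without PBS replicate 4 (each 0.24). It was at -0.07 under median-of-ratios scaling, without passing. The homeostatic markers P2ry12 and Tmem119 were low in both groups, at no more than 8 TPM in any of the 6 libraries. Siglech, Slc2a5 and Crybb1, from the homeostatic list below, were under the filter and below 1 TPM in every library. Since TPM carry no read totals, depth is unknown here and precision rests on the spread between libraries. In bulk cultures, fewer cells of a type and less RNA per cell cannot be told apart.

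Among the tested genes below whose 6 values are given one by one, the groups overlapped for Cd14 and Ifitm3 and did not for the others.

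Inflammatory and interferon-response transcripts were far lower in cells given SNI sEVs than in cells given sham sEVs, and transcripts of proliferation, lysosomes and the surveying and disease-associated microglial states were higher. With limma, 7388 genes (49.9% of those tested) were higher and 2319 (15.7%) lower in SNI sEV at an adjusted p under 0.05, called higher and lower below. Counts of list members below are read against these shares. At least 2-fold on the scale of TPM + 1, 1314 genes (8.87%) were higher and 576 (3.89%) lower. The largest differences were in the lower direction: 39 genes were at least 16-fold lower and 8 at least 16-fold higher, and 13 against 1 differed at least 32-fold. On the deposited TPM the genes had a median log2 difference of 0.24, against which the list medians below are read. It was -0.04 with median-of-ratios scaling and 0.00 with quantile normalization. Calls split into 3921 higher and 4820 lower genes with the former and 4373 and 4130 with the latter. Called in the same direction under all 3 scalings (written below as every scaling) were 3345 genes higher (22.6%) and 2313 lower (15.6%). The SNI-sEV and sham-sEV libraries did not overlap for 7350 of the 7388 higher genes and 2301 of the 2319 lower ones. They also did not overlap for 1917 of the 5099 genes that were not called. A mean below 1 TPM in sham sEV or SNI sEV was found for 984 tested genes, 696 of them called higher and 118 lower. Such genes, also those named below, pass the filter through the groups where they are high. Among genes named below as not passing, Cd14, Ifitm3, Irf1, C5ar1, Cst7, Ctsl, Txnrd1, Prdx1 and Pdcd6ip were called lower under median-of-ratios scaling, at log2 differences from -0.25 to -0.43.

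**Figure D1:**
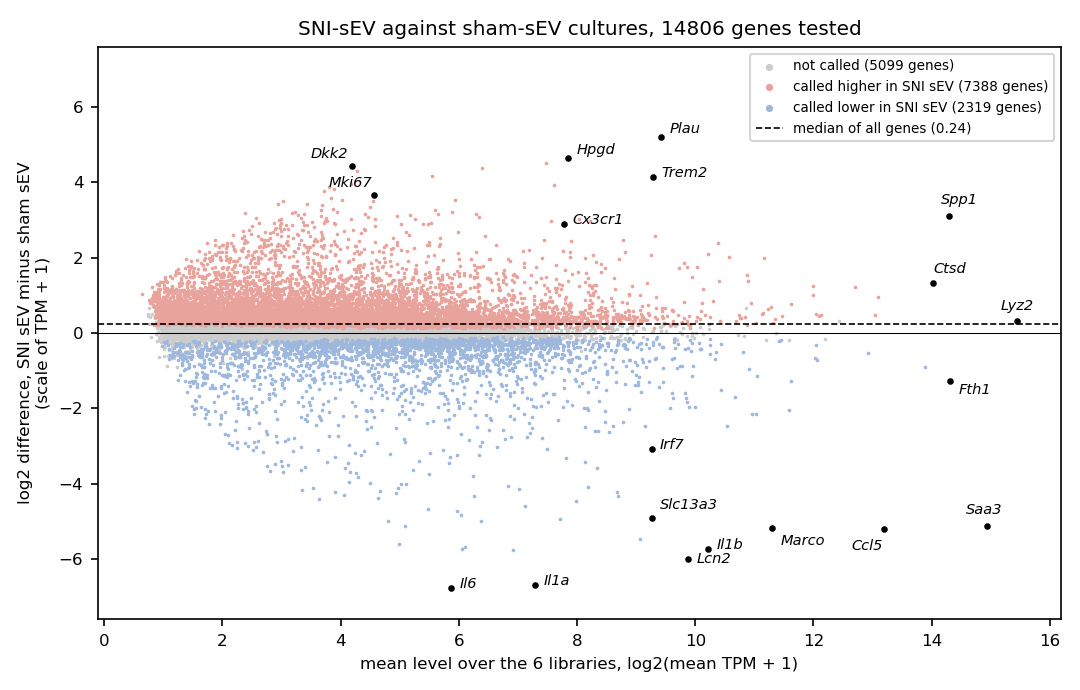
Each point is a gene tested, with its mean level over the 3 SNI-sEV and 3 sham-sEV libraries on the horizontal axis (log2 of mean TPM + 1) and the SNI-sEV minus sham-sEV log2 difference on the vertical axis. The 7388 genes called higher are red, the 2319 called lower blue and the 5099 not called grey. The dashed line marks the median of all genes, 0.24, and the lower edge of the cloud reaches farther from 0 than the upper edge.

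Pro-inflammatory cytokines included the largest differences. Il6, a cytokine of the acute-phase response (chr5:30013114-30019975 on GRCm38), was at 0.0794, 0.0383 and 0.0870 TPM with SNI sEVs and 108, 123 and 114 TPM with sham sEVs. Every sham-sEV library lay above 100 TPM and every SNI-sEV library below 0.1 TPM, a 109-fold difference on the scale of TPM + 1. Il6 had a log2 difference of -6.76 ± 0.08 (SE, limma adjusted p = 2.1e-12). In PBS, Il6 averaged 0.0672 ± 0.0742 TPM (SD, n = 4). Il1a, a cytokine released on cell damage, was at 1.84, 2.01 and 2.04 TPM with SNI sEVs and 276, 344 and 307 TPM with sham sEVs, again without overlap. Il1a had a log2 difference of -6.70 ± 0.15 (SE, limma adjusted p = 4.2e-11). Il1b, the inflammasome-processed relative of Il1a, was at 68.5, 33.5 and 33.2 TPM with SNI sEVs and 2255, 2515 and 2254 TPM with sham sEVs. Il1b had a log2 difference of -5.75 ± 0.26 (SE, limma adjusted p = 5.2e-09). For Il1b the SNI-sEV library of replicate 1 stood above the other SNI-sEV libraries, and all 3 lay far below the sham-sEV range. Tnf, a cytokine that activates endothelium and other macrophages, was at 93.1, 86.8 and 85.0 TPM with SNI sEVs and 565, 553 and 514 TPM with sham sEVs. Tnf had a log2 difference of -2.61 ± 0.06 (SE, limma adjusted p = 6.2e-11).

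Of 19 listed pro-inflammatory cytokines, 14 were tested, and 12 were lower in SNI sEV, 9 of them at least 2-fold, with a median log2 difference of -2.44. Il12b, the subunit shared by cytokines that drive T helper responses, averaged 0.206 ± 0.0968 against 12.5 ± 0.762 TPM (SD, n = 3 in each group, as in all values with ± below), and Csf3, the granulocyte growth factor, 0.00779 ± 0.0135 against 11.9 ± 1.97 TPM. Il27 and Ebi3, which encode the subunits of another T-cell cytokine, averaged 2.59 against 16.4 TPM and 54.8 against 178 TPM. The pair called higher, Osm at 26.6 against 21.1 TPM and Tnfsf9 at 19.8 against 16.2 TPM, kept that call under neither median-of-ratios scaling nor quantile normalization. Tnfsf9 also lost it without SNI-sEV replicate 3, sham-sEV replicate 1 or sham-sEV replicate 3, at log2 differences of 0.19, 0.23 and 0.27. Csf2, the granulocyte and macrophage growth factor, was under the filter and was listed at 1.18, 1.48 and 1.42 TPM with sham sEVs and 0, 0 and 0 TPM with SNI sEVs. The regulatory cytokine Il10 was lower too, at 0.454, 0.229 and 0.166 TPM with SNI sEVs and 13.6, 14.6 and 13.4 TPM with sham sEVs. Il10 had a log2 difference of -3.54 ± 0.10 (SE, limma adjusted p = 2.3e-10). Of 10 tested regulatory and growth cytokines, 5 were higher and 3 lower, a share of higher genes near the 49.9% of all genes tested. The share of lower genes in this short list was above the 15.7% of all genes tested. The growth factor Igf1 averaged 295 ± 19.4 against 51.9 ± 3.38 TPM and Pdgfb, a mitogen of mural and glial cells, averaged 60.6 ± 6.59 against 9.05 ± 0.732 TPM, both higher without overlap between the groups.

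Chemokines, the signals that recruit leukocytes, were lower in nearly every case. Of 23 listed, 21 were tested, 19 were lower (14 at least 2-fold) and 2 higher, with a median log2 difference of -2.03. Ccl5, which attracts T cells and monocytes (chr11:83525778-83530518), was at 579.9, 503 and 422 TPM with SNI sEVs and 18538, 18987 and 17460.0 TPM with sham sEVs. Ccl5 had a log2 difference of -5.20 ± 0.22 (SE, limma adjusted p = 3.2e-09). No SNI-sEV library came near the sham-sEV range, and PBS averaged 22.6 ± 6.73 TPM. The neutrophil attractants Cxcl1, Cxcl2 and Cxcl3 were 25.7-fold, 17.6-fold and 31.7-fold lower. Cxcl1 was at 2.47, 1.92 and 2.60 TPM with SNI sEVs and 85.9, 86.2 and 80.7 TPM with sham sEVs. Cxcl2 was at 12.6, 12.7 and 13.2 TPM with SNI sEVs and 268, 254 and 209.9 TPM with sham sEVs. The monocyte attractants Ccl7 and Ccl12 averaged 20.9 ± 1.90 against 178 ± 30.7 TPM and 52.2 ± 4.15 against 249 ± 39.9 TPM, and Ccl2 231 ± 30.6 against 494 ± 64.5 TPM. The interferon-induced T-cell attractants Cxcl9, Cxcl10 and Cxcl11 had sham-sEV means of 6.80 ± 1.12, 80.8 ± 12.4 and 6.39 ± 0.872 TPM and SNI-sEV means of 0.521 ± 0.0572, 8.05 ± 1.70 and 0.131 ± 0.0999 TPM. Against the rest, Cxcl14, a chemokine of resting tissue, was at 72.9, 74.3 and 73.3 TPM with SNI sEVs and 26.7, 27.5 and 27.0 TPM with sham sEVs (log2 difference 1.41 ± 0.07 SE, limma adjusted p = 1.0e-08), and Ccl6 was higher on the deposited TPM at 260.4 against 188 TPM but lost the call under median-of-ratios scaling. A mean below 1 TPM in SNI sEV or sham sEV was found for 4 of the tested cytokines and 6 of the tested chemokines, and such genes pass the filter through the group where they are high.

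NF-kappaB binds the kappaB element, and the promoters of Il6, Cxcl1 and Cxcl2 are shown because these genes were among the largest differences and each holds a kappaB-like match close to its start; they were picked after the matches were seen. The sequences are the 150 bases before the RefSeq start site on GRCm38.p6, written 5′ to 3′ along the gene, with matches to GGGNNTTTC on either strand in capitals.
Il6, chr5:30012964-30013113, plus strand: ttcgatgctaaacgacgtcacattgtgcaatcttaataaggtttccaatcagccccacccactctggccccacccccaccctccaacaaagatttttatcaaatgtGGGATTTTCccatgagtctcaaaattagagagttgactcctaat
Cxcl1, chr5:90891095-90891244, plus strand: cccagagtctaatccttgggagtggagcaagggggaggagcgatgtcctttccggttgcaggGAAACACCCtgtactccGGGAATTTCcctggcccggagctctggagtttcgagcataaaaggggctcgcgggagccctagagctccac
Cxcl2, chr5:90903749-90903898, plus strand: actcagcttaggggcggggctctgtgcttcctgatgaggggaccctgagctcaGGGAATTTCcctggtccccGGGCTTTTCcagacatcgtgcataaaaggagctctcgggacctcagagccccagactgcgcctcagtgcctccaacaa
Over windows from 250 bases before to 50 bases after the start, available once for 7749 of the genes tested, this motif was found on either strand in 4.39% of all windows, in 9.38% of the 352 windows of genes at least 2-fold lower in SNI sEV and in 4.41% of the 771 windows of genes at least 2-fold higher. Among chemokines it was found in 5 of 14 windows, and in the NF-kappaB list below in 3 of 15. Matches overlapped a match to the interferon motif below in 3 windows and a match to the cell cycle motif below in 8. A match describes letters and was not tested as a binding site.

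Genes that NF-kappaB induces, and the inhibitors that restrain it, were lower together. All 22 listed were tested, 20 were lower, 15 at least 2-fold, 0 were higher, and the median log2 difference was -1.49. Traf1, an adaptor of TNF receptors, was at 1.58, 1.31 and 1.46 TPM with SNI sEVs and 132, 136 and 122 TPM with sham sEVs. Traf1 had a log2 difference of -5.74 ± 0.10 (SE, limma adjusted p = 1.6e-11). Irak3, a brake on Toll-like receptor signalling, averaged 11.9 ± 0.274 against 214 ± 9.07 TPM, and the mitochondrial superoxide dismutase Sod2 49.1 ± 2.44 against 597 ± 17.2 TPM. The inhibitors Nfkbia and Nfkbiz averaged 112 ± 12.3 against 466 ± 20.4 TPM and 26.6 ± 4.14 against 191 ± 12.4 TPM, and the deubiquitinase Tnfaip3 differed least of those named, 46.8 ± 1.27 against 67.0 ± 4.48 TPM. Tnfaip3 had a log2 difference of -0.51 ± 0.09 (SE, limma adjusted p = 4.0e-04). The RNase Zc3h12a, which degrades cytokine transcripts, averaged 18.3 ± 1.11 against 93.3 ± 5.58 TPM, and the adhesion molecule Icam1 87.0 ± 5.29 against 344 ± 13.8 TPM.

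Receptors that sense microbes and damage differed in both directions, with more of them lower than higher. Of 27 pattern recognition genes listed, 26 were tested, 12 were lower and 9 higher, with a median log2 difference of -0.16; under every scaling 5 remained higher and 12 lower. Clec4e, a lectin that senses mycobacterial glycolipid and dead cells, was at 21.2, 20.4 and 20.9 TPM with SNI sEVs and 445, 495 and 513 TPM with sham sEVs. Clec4e had a log2 difference of -4.47 ± 0.13 (SE, limma adjusted p = 1.9e-10). Tlr1 averaged 29.0 ± 1.17 against 204 ± 6.98 TPM, Tlr2 85.1 ± 8.58 against 161 ± 6.86 TPM and the adaptor Myd88 93.3 ± 4.63 against 159 ± 4.68 TPM. In the other direction, the endosomal RNA sensor Tlr13 averaged 243 ± 25.6 against 71.1 ± 2.20 TPM, the lipopolysaccharide receptor Tlr4 33.1 ± 2.98 against 17.9 ± 0.917 TPM and the beta-glucan receptor Clec7a 100.2 ± 9.80 against 33.9 ± 2.72 TPM. The lipopolysaccharide co-receptor Cd14 was at 2775, 2553 and 2649 TPM with SNI sEVs and 2619.7, 2651 and 2670.3 TPM with sham sEVs, overlapping ranges whose log2 difference had a 95% interval of -0.10 to 0.11. The inflammasome sensor Nlrp3 averaged 33.1 ± 2.26 against 84.6 ± 5.30 TPM. Cytokine and chemokine receptors were 14 higher (9 under every scaling) and 8 lower of 26 tested, a share of higher genes near the 49.9% of all genes tested. For these receptors the share of lower genes was above the 15.7% of all genes tested. Cxcr4, the receptor for stromal chemokine, averaged 61.8 ± 6.55 against 12.1 ± 1.45 TPM, the shared Il6-family receptor Il6st 67.4 ± 4.22 against 17.5 ± 1.39 TPM, Tnfrsf1b, a TNF receptor, 147 ± 3.51 against 515 ± 26.6 TPM and Il4ra 23.4 ± 1.26 against 87.0 ± 2.29 TPM.

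**Figure D2:**
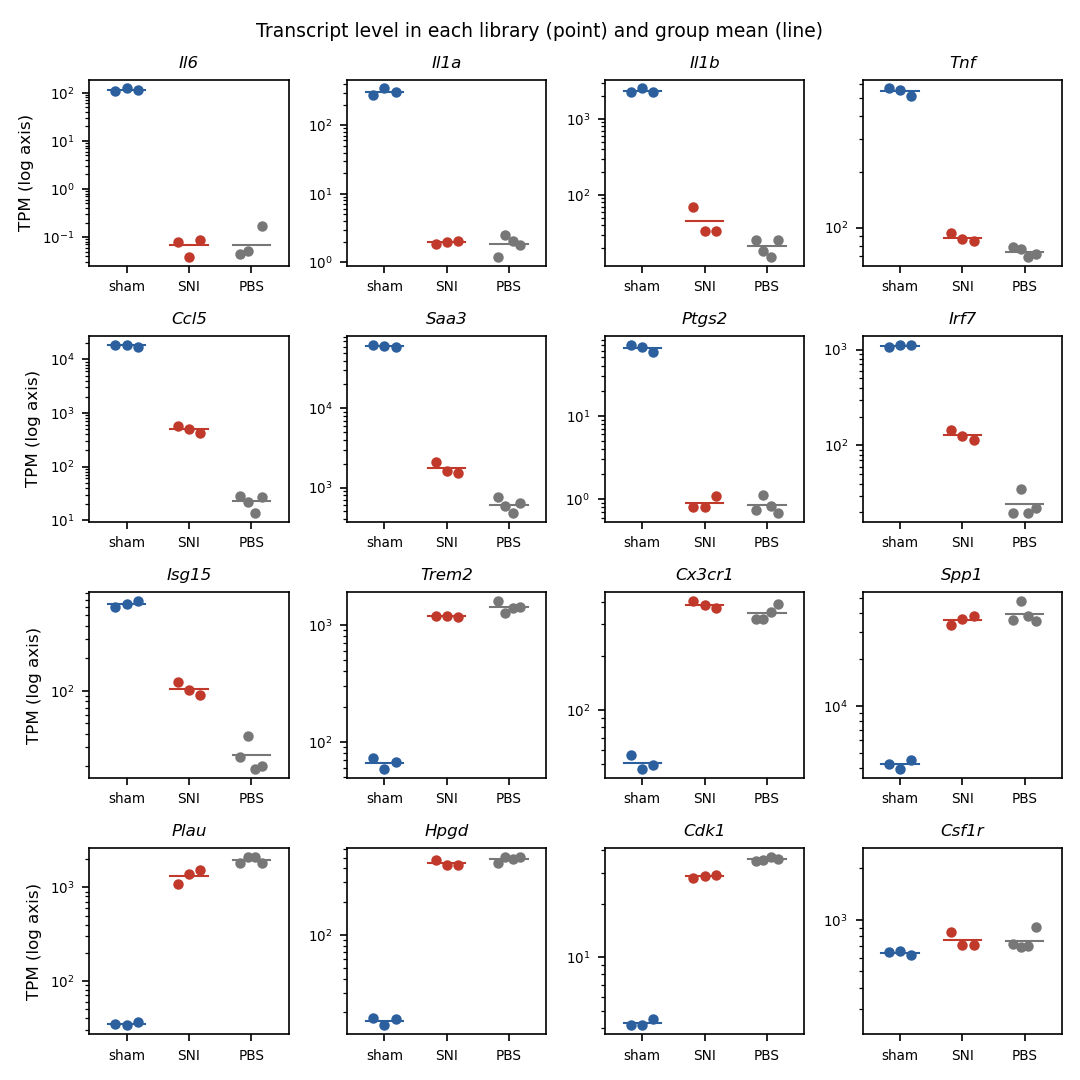
TPM (log axis) of 16 genes in each library, with sham-sEV libraries in blue, SNI-sEV libraries in red and PBS libraries in grey, and a line at each group mean. For Il6, Il1a, Il1b, Tnf, Ccl5, Saa3, Ptgs2, Irf7 and Isg15 all 3 SNI-sEV points lie below all 3 sham-sEV points, for Trem2, Cx3cr1, Spp1, Plau, Hpgd and Cdk1 above them, and Csf1r ranges from 645, 654 and 618 TPM in sham sEV to 846, 713 and 714 TPM in SNI sEV. The Il6 value of 1 PBS library, 0, has no place on a log axis and is not drawn.

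Enzymes of lipid mediators differed in both directions. Ptgs2 and Ptges, which make prostaglandin E in inflammation, were lower, and Hpgd, which degrades it, was higher. Ptgs2 was at 0.812, 0.813 and 1.08 TPM with SNI sEVs and 71.3, 65.9 and 57.7 TPM with sham sEVs. Ptgs2 had a log2 difference of -5.11 ± 0.11 (SE, limma adjusted p = 4.2e-11). Ptges was at 3.61, 2.80 and 3.83 TPM with SNI sEVs and 241, 254 and 217 TPM with sham sEVs. Ptges had a log2 difference of -5.76 ± 0.11 (SE, limma adjusted p = 2.2e-11). Hpgd was at 473, 428 and 426 TPM with SNI sEVs and 17.5, 15.1 and 17.4 TPM with sham sEVs. Hpgd had a log2 difference of 4.65 ± 0.07 (SE, limma adjusted p = 1.2e-11). None of these 3 genes had overlapping groups, and in PBS they averaged 0.851 ± 0.202 TPM, 2.86 ± 0.366 TPM and 486 ± 28.1 TPM in that order. The constitutive cyclooxygenase Ptgs1 averaged 9.40 ± 0.521 against 2.20 ± 0.198 TPM. The leukotriene genes were higher as well: Alox5 averaged 7.47 ± 0.983 against 1.08 ± 0.257 TPM, its activating protein Alox5ap 269 ± 23.8 against 66.8 ± 5.84 TPM and the leukotriene synthase Ltc4s 10.9 ± 0.800 against 2.41 ± 0.547 TPM. Nos2, the inducible nitric oxide synthase, was at 0.611, 0.213 and 0.0809 TPM with SNI sEVs and 59.3, 67.6 and 57.3 TPM with sham sEVs. Nos2 had a log2 difference of -5.60 ± 0.14 (SE, limma adjusted p = 8.3e-11). Acod1, which makes itaconate, averaged 37.9 ± 4.42 against 786 ± 77.4 TPM, and the dicarboxylate transporter Slc13a3 38.8 ± 6.28 against 1187 ± 105 TPM. Of 16 tested genes of this list 7 were higher and 7 lower, and each of these calls held under every scaling.

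Acute-phase and antimicrobial transcripts were mostly lower. Saa3, an acute-phase apolipoprotein, was the most abundant transcript of the sham-sEV libraries, at 2097, 1629 and 1519.7 TPM with SNI sEVs and 63703, 60327 and 59101 TPM with sham sEVs (log2 difference -5.14 ± 0.15 SE, limma adjusted p = 2.4e-10), with 612 ± 115 TPM in PBS. Lcn2, which binds bacterial siderophores, was at 24.8, 26.8 and 32.7 TPM with SNI sEVs and 1914, 1934 and 1732 TPM with sham sEVs. Lcn2 had a log2 difference of -6.01 ± 0.28 (SE, limma adjusted p = 7.0e-09). The haptoglobin gene Hp averaged 1.71 ± 0.269 against 41.5 ± 1.38 TPM, and the antimicrobial peptide gene Camp 0.105 ± 0.0528 against 6.13 ± 0.811 TPM. Of 11 tested of 18 listed, 8 were lower and 3 higher: the lysozymes Lyz1 and Lyz2 and the pore-former Mpeg1. Lyz2, the most abundant transcript of the SNI-sEV libraries, averaged 49942 ± 3348 against 39605 ± 986 TPM, 1.26-fold higher on the deposited TPM, without keeping the call under median-of-ratios scaling or with no filter on low values. Lyz1 lost it under median-of-ratios scaling. Camp and S100a8, both lower here, are also neutrophil markers: the 8 neutrophil markers in the table summed to 10.1 to 13.4 TPM in SNI sEV and 37.6 to 39.0 TPM in sham sEV, mostly S100a8 (11.7 against 32.1 TPM). The defining neutrophil genes Ly6g, Elane and Mpo were below 0.1 TPM in all 6 libraries, and the part of neutrophils in the result was not tested.

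Interferon-stimulated genes were lower in SNI sEV in most of the list. Of 36 listed, 35 were tested, 32 were lower (22 at least 2-fold), 0 were higher and 3 did not pass, with a median log2 difference of -1.27 against 0.24 for all genes. Irf7, the factor that amplifies interferon production (chr7:141263183-141266499), was at 146, 125 and 115 TPM with SNI sEVs and 1054, 1128 and 1112 TPM with sham sEVs. Irf7 had a log2 difference of -3.09 ± 0.18 (SE, limma adjusted p = 5.3e-08). The SNI-sEV libraries lay well under the sham-sEV libraries and above the 24.3 ± 7.56 TPM of PBS. Isg15, a ubiquitin-like modifier, was at 119.8, 101 and 91.0 TPM with SNI sEVs and 596, 643 and 685 TPM with sham sEVs (log2 difference -2.62 ± 0.21 SE, limma adjusted p = 7.0e-07), with 25.5 ± 8.84 TPM in PBS. Ifit1, which binds viral RNA caps, was at 40.5, 34.5 and 31.5 TPM with SNI sEVs and 227, 259.7 and 250.4 TPM with sham sEVs (log2 difference -2.76 ± 0.25 SE, limma adjusted p = 1.9e-06), with 6.97 ± 3.47 TPM in PBS. The RNA-sensing relative Oasl1 was 19.1-fold lower, the Z-form nucleic acid sensor Zbp1 6.30-fold, the Isg15 protease Usp18 5.01-fold and tetherin, Bst2, 3.27-fold. Oas3, which activates RNase against viral RNA, averaged 31.0 ± 2.71 against 68.2 ± 8.28 TPM, a smaller difference. Ifitm3, which blocks viral entry, was at 1891, 1707 and 1736 TPM with SNI sEVs and 1838, 1877 and 1875 TPM with sham sEVs and overlapped between the groups. Ifitm3 had a log2 difference of -0.07 ± 0.08 (SE, limma adjusted p = 0.47). The interferon gene Ifnb1 was under the filter, at 0.289, 0.451 and 0.393 TPM with sham sEVs and 0.118, 0.113 and 0 TPM with SNI sEVs.

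Interferon-induced GTPases, which act on vacuoles that hold pathogens, were lower as well. Of 20 genes in the list of these GTPases and of interferon-gamma targets, 17 were tested, 15 were lower (14 at least 2-fold) and 1 higher, with a median log2 difference of -1.90. The guanylate-binding protein gene Gbp5 was at 1.29, 1.10 and 1.35 TPM with SNI sEVs and 42.7, 50.2 and 45.3 TPM with sham sEVs. Gbp5 had a log2 difference of -4.39 ± 0.10 (SE, limma adjusted p = 6.2e-11). Gbp2 averaged 11.0 ± 0.615 against 113 ± 8.94 TPM. Gbp3, Gbp4, Gbp6 and Gbp7, which share near-identical stretches, so that reads may be divided between them, were 9.49-fold, 6.98-fold, 6.70-fold and 9.73-fold lower. Socs3, a feedback inhibitor of cytokine receptors, was at 4.48, 3.69 and 4.05 TPM with SNI sEVs and 154, 170.5 and 157 TPM with sham sEVs. Socs3 had a log2 difference of -4.99 ± 0.08 (SE, limma adjusted p = 1.6e-11). Its relative Socs1 averaged 1.46 ± 0.239 against 8.44 ± 1.02 TPM. Irf8, a lineage factor of microglia, was the gene called higher, at 148 ± 4.59 against 86.4 ± 3.06 TPM. Irf1 averaged 32.2 ± 3.48 against 35.0 ± 2.97 TPM and did not pass the test. Irf1 had a log2 difference of -0.12 ± 0.09 (SE, limma adjusted p = 0.29). It was called lower under median-of-ratios scaling (-0.43), with quantile normalization (-0.27) and with library weights (-0.19).

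The interferon-stimulated response element binds the STAT and IRF complex that type I interferon activates, and the promoters of Isg15 and Ifit1 are shown because each holds 3 matches to its core within the printed stretch; they were picked after the matches were seen. As above, the sequences are the 150 bases before the RefSeq start site on GRCm38.p6, 5′ to 3′ along the gene, with matches to GAAANNGAA on either strand in capitals and overlapping matches joined.
Isg15, chr4:156200819-156200968, minus strand: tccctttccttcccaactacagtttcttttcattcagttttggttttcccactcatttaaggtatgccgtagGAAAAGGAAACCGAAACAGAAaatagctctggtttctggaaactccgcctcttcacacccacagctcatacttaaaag
Ifit1, chr19:34640739-34640888, plus strand: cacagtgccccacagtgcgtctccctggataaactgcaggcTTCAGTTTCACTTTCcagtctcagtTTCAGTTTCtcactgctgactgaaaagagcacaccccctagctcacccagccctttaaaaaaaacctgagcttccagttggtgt
This core was found in 7.45% of all 7749 windows, in 19.9% of the windows of genes at least 2-fold lower in SNI sEV and in 7.65% of those at least 2-fold higher. Of the interferon-stimulated genes with a window, 14 of 21 held it. It overlapped a match to the cell cycle motif below in 12 windows, and its presence was not tested as a binding site.

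**Figure D3:**
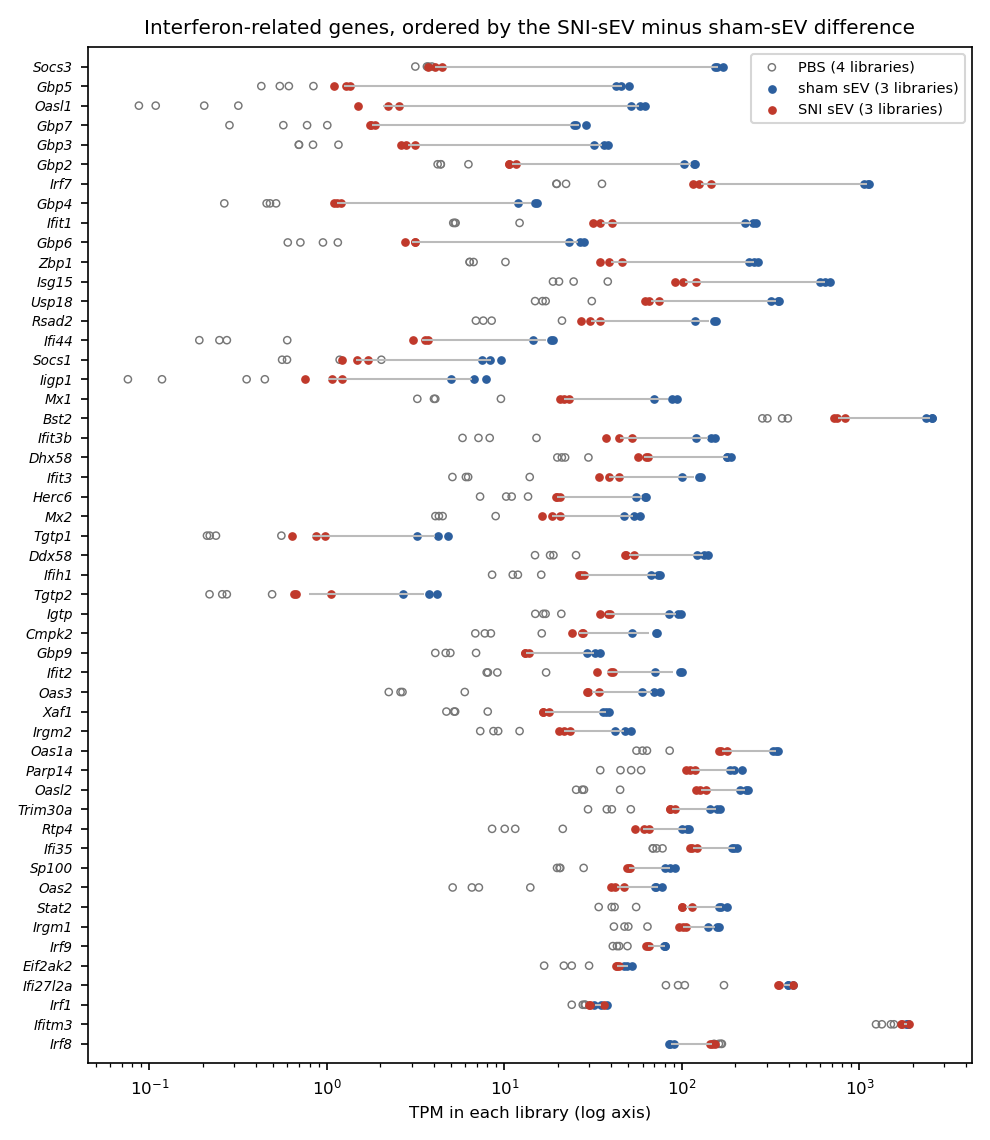
TPM (log axis) in each library of the interferon-stimulated genes, interferon-induced GTPases and interferon-gamma targets tested and reported here, ordered by the SNI-sEV minus sham-sEV difference, with sham-sEV libraries in blue, SNI-sEV libraries in red, PBS libraries as open circles and a grey line between the sham-sEV and SNI-sEV means. Red points lie left of blue points for the genes called lower, and right of them for Irf8, at the bottom, while Eif2ak2, Ifi27l2a, Irf1 and Ifitm3 were not called.

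Transcripts of class I antigen presentation were mostly lower, and those of class II presentation and costimulation were mixed. All 18 class I genes listed were tested, 15 were lower and 0 higher, with a median log2 difference of -0.55. The class I heavy chain H2-K1 averaged 1309 ± 99.1 against 2901 ± 70.5 TPM, beta-2 microglobulin, B2m, 6383 ± 294 against 9152 ± 358 TPM, the peptide transporter Tap1 53.9 ± 3.38 against 120.1 ± 5.70 TPM and the immunoproteasome subunit Psmb8 324 ± 22.0 against 650.3 ± 7.68 TPM. How reads of near-identical class I copies were divided is not given in the sources used here. Of 11 tested genes of class II presentation and costimulation, 6 were higher and 5 lower, but under every scaling 1 was higher, H2-DMb1, a peptide-loading chaperone at 23.2 ± 1.96 against 8.53 ± 0.125 TPM, and 5 were lower. These were the costimulatory receptor Cd40 at 2.73 ± 0.203 against 32.9 ± 0.498 TPM, the checkpoint ligand Cd274 at 19.0 ± 1.15 against 148 ± 4.91 TPM, the ligands Icosl and Cd80, and the invariant chain Cd74 at 30.5 ± 0.445 against 59.3 ± 2.75 TPM.

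Complement genes, Fc receptors and chemoattractant receptors were more often lower than higher, with some genes in the other direction. Of 19 complement and Fc genes, all tested, 3 were higher and 10 lower, and of 12 tested chemoattractant and lipid receptors 3 and 7. Their median log2 differences were -0.32 and -0.70, and both shares of lower genes were above the 15.7% of all genes tested. Factor B, Cfb, which forms the alternative-pathway convertase, was at 3.76, 3.12 and 3.30 TPM with SNI sEVs and 122, 130.2 and 124 TPM with sham sEVs. Cfb had a log2 difference of -4.85 ± 0.10 (SE, limma adjusted p = 3.7e-11). Complement C3 averaged 419 ± 60.5 against 1624 ± 74.5 TPM. Among Fc receptors, Fcgr1 averaged 154 ± 15.1 against 387 ± 26.7 TPM and Fcgr4 61.9 ± 2.02 against 241 ± 20.5 TPM, while Fcgr3 averaged 250.2 ± 17.4 against 114 ± 5.77 TPM. The formyl peptide receptors Fpr1 and Fpr2, which guide cells to bacterial and mitochondrial peptides, averaged 31.4 ± 7.25 against 547 ± 2.58 TPM and 40.4 ± 6.80 against 407 ± 36.5 TPM. The adenosine receptor Adora2a was at 0.230, 0.0740 and 0.0336 TPM with SNI sEVs and 23.3, 24.3 and 20.5 TPM with sham sEVs. Adora2a had a log2 difference of -4.41 ± 0.10 (SE, limma adjusted p = 4.2e-11). The sphingosine phosphate receptor S1pr1 averaged 86.8 ± 9.91 against 8.15 ± 0.874 TPM, higher, and C5ar1, the receptor of a complement peptide, averaged 229.8 ± 10.6 against 222 ± 3.65 TPM and did not pass the test.

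Genes of the surveying, homeostatic state were higher in SNI sEV. Of 25 listed, 22 were tested, 19 were higher (16 under every scaling, 11 at least 2-fold) and 2 lower, with a median log2 difference of 0.99. The fractalkine receptor Cx3cr1, through which neurons signal to microglia, was at 404, 381 and 370.0 TPM with SNI sEVs and 56.5, 46.8 and 49.5 TPM with sham sEVs. Cx3cr1 had a log2 difference of 2.90 ± 0.09 (SE, limma adjusted p = 2.5e-10). PBS averaged 345 ± 32.4 TPM. The TGF-beta receptor Tgfbr1 averaged 58.9 ± 3.53 against 16.1 ± 0.481 TPM and the transcription factor Mef2c 6.57 ± 0.720 against 1.99 ± 0.0550 TPM. Gpr34, a receptor for lysophosphatidylserine, was at 2.09, 4.31 and 3.08 TPM with SNI sEVs and 0.0506, 0.0494 and 0.0430 TPM with sham sEVs. The organic anion transporter Slco2b1 was at 6.97, 9.27 and 8.98 TPM with SNI sEVs and 0.0420, 0.0219 and 0.0163 TPM with sham sEVs, and every sham-sEV value of both genes lay below 0.1 TPM. Both genes passed the filter only through the SNI-sEV and PBS libraries. The identity factor Sall1 and the ADP receptor P2ry12 differed less, at 9.80 ± 0.617 against 5.07 ± 0.273 TPM and 6.81 ± 0.745 against 3.65 ± 0.393 TPM. Tmem119, at 6.92 ± 0.262 against 5.17 ± 0.515 TPM, lost its call under both other scalings and with no filter on low values. It also lost it without SNI-sEV replicate 1 or 2 or sham-sEV replicate 2 or 3, at log2 differences of 0.34, 0.37, 0.31 and 0.35. The pair that was lower was Fcrls, an Fc receptor-like scavenger receptor, at 80.3, 68.8 and 59.2 TPM with SNI sEVs and 285, 244 and 266 TPM with sham sEVs, and the granulocyte growth factor receptor Csf3r at 44.4 ± 1.89 against 72.6 ± 2.68 TPM.

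Disease-associated microglia genes, a set known from mouse models of neurodegeneration and demyelination, were higher too. All 25 listed were tested, 20 were higher (19 under every scaling, 16 at least 2-fold), 2 lower, and the median log2 difference was 1.32. Trem2, a lipid receptor that this state requires (chr17:48346401-48352276), was at 1185, 1199.8 and 1158 TPM with SNI sEVs and 72.7, 58.2 and 66.7 TPM with sham sEVs. Trem2 had a log2 difference of 4.15 ± 0.09 (SE, limma adjusted p = 4.3e-11). No sham-sEV library came near the SNI-sEV range, and PBS averaged 1422 ± 144 TPM. Spp1, which encodes osteopontin, was at 33303, 36541 and 38005 TPM with SNI sEVs and 4203, 3908 and 4492 TPM with sham sEVs. Spp1 had a log2 difference of 3.10 ± 0.11 (SE, limma adjusted p = 7.7e-10). Lipoprotein lipase, Lpl, averaged 2437 ± 193 against 603 ± 16.4 TPM, the glycoprotein Gpnmb 3655 ± 161 against 921 ± 14.1 TPM, galectin Lgals3 2252 ± 44.6 against 431 ± 17.4 TPM and the tetraspanin Cd9 732 ± 36.4 against 163 ± 8.57 TPM. Apoe, the main lipid carrier of the brain, averaged 11484 ± 1283 against 5888 ± 348 TPM, and Tyrobp, the signalling adaptor of Trem2, 5475 ± 190.3 against 2710.2 ± 81.2 TPM. The ferritin chain Fth1, a gene with many near-identical processed copies, and the fatty acid binder Fabp5 were lower, at 11890.0 ± 157 against 28963 ± 676 TPM and 989 ± 27.4 against 1587 ± 27.9 TPM, and Cst7, Ctsl and Csf1 did not pass the test, with log2 differences of -0.05, -0.08 and 0.13. Csf1 passed with library weights (0.15) and in the fit of the 6 libraries alone (0.13).

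**Figure D4:**
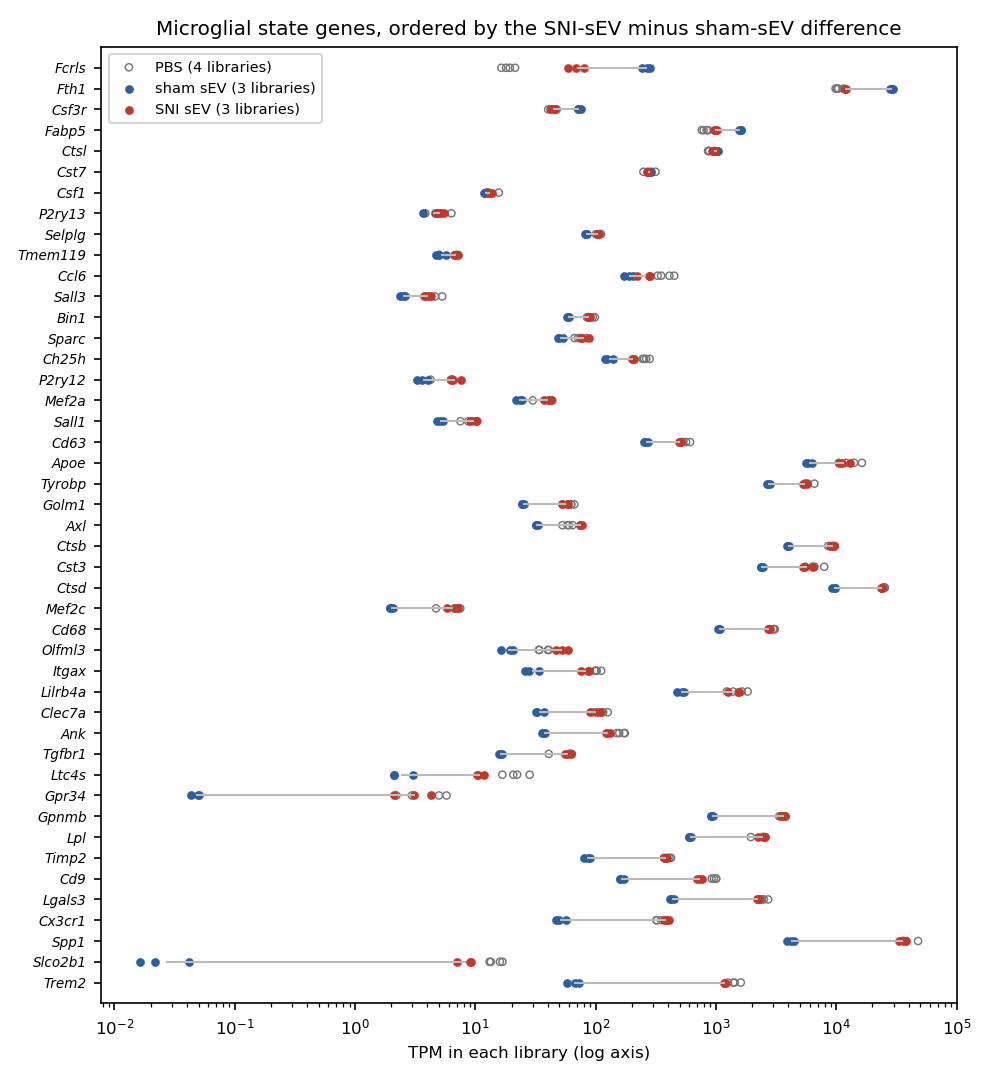
TPM (log axis) in each library of the homeostatic and disease-associated microglia genes tested and reported here, ordered by the SNI-sEV minus sham-sEV difference, with sham-sEV libraries in blue, SNI-sEV libraries in red, PBS libraries as open circles and a grey line between the sham-sEV and SNI-sEV means. Most red points lie right of the blue points, farthest on the log axis for Slco2b1 and Gpr34, while Trem2 at the bottom leads on the scale of TPM + 1 that sets the order, and Fcrls and Fth1 at the top show the reverse.

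Lysosomal and clearance genes were mostly higher. Of 32 lysosomal genes, all tested, 28 were higher (22 under every scaling) and 3 lower, with a median log2 difference of 0.74. The aspartic protease cathepsin D, Ctsd, was at 23392, 24099 and 24196 TPM with SNI sEVs and 9692, 9259 and 9802 TPM with sham sEVs. Ctsd had a log2 difference of 1.32 ± 0.05 (SE, limma adjusted p = 1.1e-09). Cathepsin B, Ctsb, averaged 9324 ± 370.5 against 3969 ± 75.1 TPM. Lipa, which hydrolyses lysosomal cholesteryl ester, averaged 1297 ± 105 against 391 ± 11.6 TPM and the macrosialin gene Cd68 2763 ± 46.9 against 1056 ± 18.8 TPM. The cathepsins Ctsc, Ctsh and Ctsz were lower, at 94.1 against 293 TPM, 138 against 182 TPM and 2621 against 2957 TPM, the last without a call with no filter on low values and when SNI-sEV replicate 2, sham-sEV replicate 1 or sham-sEV replicate 2 was left out (log2 differences -0.17, -0.17 and -0.17). Among 18 tested scavenger and apoptotic-cell receptors 12 were higher and 4 lower, with a median log2 difference of 1.09. Marco, a scavenger receptor for bacteria and particles, was at 147, 139.8 and 117 TPM with SNI sEVs and 5284, 4731 and 4694 TPM with sham sEVs. Marco had a log2 difference of -5.18 ± 0.18 (SE, limma adjusted p = 7.9e-10). The sialic acid receptor Siglece averaged 10.1 ± 1.38 against 265 ± 8.43 TPM. In the other direction the mannose receptor Mrc1 averaged 41.6 ± 3.26 against 4.19 ± 0.101 TPM, stabilin Stab1 497 ± 4.15 against 119 ± 12.5 TPM and Havcr2, which binds phosphatidylserine, 86.6 ± 9.31 against 14.3 ± 1.34 TPM. Gas6, the bridge from dying cells to TAM receptors, averaged 744 ± 0.700 against 135 ± 4.98 TPM, and the TAM receptors differed in opposite directions, Axl at 74.9 ± 1.29 against 32.2 ± 0.649 TPM and Mertk at 36.6 ± 0.262 against 53.9 ± 3.26 TPM.

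Cell division genes were higher almost without exception. Of 25 mitosis genes, all tested, 24 were higher, each at least 2-fold and under every scaling, with a median log2 difference of 2.74. Cks2, which binds cyclin-dependent kinases, was lower at 7.92 ± 1.18 against 10.8 ± 0.717 TPM. The proliferation antigen gene Mki67 was at 40.2, 43.2 and 45.3 TPM with SNI sEVs and 2.71, 2.47 and 2.26 TPM with sham sEVs. Mki67 had a log2 difference of 3.66 ± 0.16 (SE, limma adjusted p = 5.6e-09). Cdk1, the kinase of mitotic entry, was at 28.0, 28.6 and 29.2 TPM with SNI sEVs and 4.14, 4.12 and 4.46 TPM with sham sEVs. Cdk1 had a log2 difference of 2.50 ± 0.06 (SE, limma adjusted p = 4.4e-11). PBS averaged 48.6 ± 10.8 TPM for Mki67 and 35.7 ± 0.810 TPM for Cdk1. The cyclins Ccna2, Ccnb1 and Ccnb2 averaged 18.8 ± 1.17 against 0.833 ± 0.0112 TPM, 9.75 ± 1.01 against 1.19 ± 0.0278 TPM and 26.8 ± 0.996 against 1.97 ± 0.186 TPM, and the topoisomerase Top2a 63.4 ± 5.28 against 6.31 ± 0.0987 TPM. All 26 DNA replication genes were higher under every scaling, 24 at least 2-fold, with a median log2 difference of 2.00. The ribonucleotide reductase subunit Rrm2 averaged 41.9 ± 3.87 against 2.76 ± 0.483 TPM, the helicase subunit Mcm5 58.3 ± 3.16 against 8.27 ± 0.903 TPM and the polymerase clamp Pcna 447 ± 31.2 against 112 ± 8.14 TPM. Of 27 regulators of G1, survival and death, all tested, 14 were higher and 7 lower, a share of higher genes near the 49.9% of all genes tested. Lower genes made up a share above the 15.7% of all genes tested. Cyclin D1, Ccnd1, averaged 334 ± 31.3 against 41.4 ± 0.784 TPM and the CDK inhibitor Cdkn2c 15.5 ± 0.664 against 2.22 ± 0.311 TPM, while the CDK inhibitor Cdkn1a averaged 245 ± 19.4 against 221 ± 4.35 TPM and did not pass the test. Cdkn1a had a log2 difference of 0.14 ± 0.06 (SE, limma adjusted p = 0.051). It passed without SNI-sEV replicate 1, at a log2 difference of 0.21, with library weights, at 0.19, and with the replicate block or without PBS replicate 1, at 0.14. The death receptor Fas, the necroptosis effector Mlkl and the inflammatory caspases Casp4 and Casp1 were lower, at 5.40 against 36.3 TPM, 5.89 against 21.9 TPM, 47.6 against 98.7 TPM and 172 against 291 TPM. A mean below 1 TPM in either group was found for 6 mitosis genes and 2 replication genes.

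The promoter of Cdk1 is shown because it holds 2 matches to the cell cycle homology region, through which mitotic genes are repressed in resting cells; it was picked after the matches were seen. The sequence is again the 150 bases before the RefSeq start site on GRCm38.p6, 5′ to 3′ along the gene, with matches to TTTGAA on either strand in capitals.
Cdk1, chr10:69352913-69353062, minus strand: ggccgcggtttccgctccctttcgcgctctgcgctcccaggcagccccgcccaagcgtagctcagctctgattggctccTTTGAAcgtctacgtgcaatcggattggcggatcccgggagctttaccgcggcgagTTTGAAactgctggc
This motif was found in 12.4% of all 7749 windows, in 18.8% of those of genes at least 2-fold higher and in 14.5% of those at least 2-fold lower. It was found in 14 of 20 windows of mitosis genes and in 2 of 18 windows of DNA replication genes.

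Stress response and metabolic lists had smaller median differences than cytokines and chemokines, though some single genes differed strongly. Endoplasmic reticulum and integrated stress response genes were lower in 22 of 25 cases with a median log2 difference of -0.59. At least 2-fold lower were 7 of them, beside 3.89% of all genes tested. The 2 called higher did not hold under every scaling, and 1 remained without SNI-sEV replicate 1 or 2 or sham-sEV replicate 1 or 3. The stress factors Atf4, Ddit3 and Trib3 averaged 206 ± 4.79 against 390.1 ± 6.90 TPM, 24.7 ± 1.02 against 64.3 ± 1.28 TPM and 7.41 ± 0.388 against 33.7 ± 1.42 TPM, the glutathione-degrading enzyme Chac1 2.73 ± 0.513 against 19.3 ± 1.57 TPM and asparagine synthetase, Asns, 33.4 ± 3.66 against 119 ± 5.85 TPM. The chaperone Hspa5 averaged 570.5 ± 20.5 against 1079.5 ± 62.6 TPM. Aminoacyl-tRNA synthetases, several of which Atf4 induces, were lower in 15 of 20 cases, by a median of -0.40, for example the alanine enzyme Aars at 69.1 ± 1.58 against 151 ± 7.15 TPM. Glycolysis and hypoxia genes were lower in 15 and higher in 7 of 26 cases (15 and 3 under every scaling). Hexokinase Hk2 averaged 24.7 ± 0.106 against 102 ± 9.02 TPM, Hif1a 68.8 ± 3.15 against 135 ± 7.19 TPM and adrenomedullin, Adm, 0.978 ± 0.112 against 13.6 ± 0.946 TPM. Ribosomal protein genes were higher in 41 of 50 cases on the deposited TPM, but their median moved from 0.34 to 0.04 under median-of-ratios scaling, where 3 were called higher and 1 lower. Respiratory chain subunits were 7 higher and 8 lower of 34, and 0 and 24 under median-of-ratios scaling, so no direction is given for either list.

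Lipid handling and redox genes held large differences in both directions. The lipid droplet coat Plin2 was at 952, 987 and 1005 TPM with SNI sEVs and 220.3, 234 and 237 TPM with sham sEVs. Plin2 had a log2 difference of 2.09 ± 0.06 (SE, limma adjusted p = 2.7e-10). The fatty acid receptor Pparg averaged 8.68 ± 0.533 against 1.41 ± 0.186 TPM. Acsl1, which activates fatty acids, averaged 13.1 ± 0.917 against 73.3 ± 3.43 TPM, and the oxysterol receptor Nr1h3 11.7 ± 0.490 against 41.2 ± 2.33 TPM, both lower. Of 20 genes of lipid efflux and storage, all tested, 9 were higher and 6 lower, each of them under every scaling. Of 21 tested genes of cholesterol and fatty acid synthesis, 14 did not pass, 4 were higher and 3 lower. Under median-of-ratios scaling 12 of them were lower. Of 26 antioxidant, iron and metal genes, all tested, 10 were higher and 7 lower. The glutathione reductase Gsr averaged 46.8 ± 0.734 against 153 ± 7.27 TPM and the phagocyte oxidase subunit Cybb 610.4 ± 46.1 against 1359 ± 132 TPM, while the iron exporter Slc40a1, ferroportin, averaged 32.4 ± 7.18 against 6.37 ± 0.687 TPM and metallothionein Mt1 42.5 ± 1.17 against 15.4 ± 1.20 TPM. Hmox1, which breaks down heme, averaged 1078 ± 77.0 against 1354 ± 30.8 TPM, and the classical antioxidant genes Nqo1, Txnrd1 and Prdx1 did not pass the test.

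Matrix remodelling genes included the largest difference in the higher direction. Plau, which encodes the protease urokinase (chr14:20836662-20843388), was at 1083, 1407 and 1525 TPM with SNI sEVs and 34.7, 33.4 and 36.4 TPM with sham sEVs. Plau had a log2 difference of 5.21 ± 0.11 (SE, limma adjusted p = 4.2e-11). Its receptor Plaur averaged 164 ± 24.9 against 73.6 ± 4.30 TPM. Serpinb2, an inhibitor of urokinase, was at 0.111, 0.0640 and 0 TPM with SNI sEVs and 17.8, 19.9 and 16.8 TPM with sham sEVs. Serpinb2 had a log2 difference of -4.18 ± 0.09 (SE, limma adjusted p = 3.7e-11). The protease and its receptor were higher and this inhibitor lower. Other serpin genes are not described here, so no direction is given for the inhibitors as a set. PBS averaged 1981 ± 163 TPM for Plau. The metalloproteases split: the gelatinase Mmp9 was at 24.2, 22.3 and 21.3 TPM with SNI sEVs and 1128, 1076 and 918 TPM with sham sEVs. Mmp9 had a log2 difference of -5.46 ± 0.10 (SE, limma adjusted p = 1.6e-11). The collagenase Mmp13 averaged 46.9 ± 2.77 against 515 ± 55.6 TPM and the membrane-anchored Mmp14 10.1 ± 0.701 against 94.7 ± 4.82 TPM, while the macrophage elastase Mmp12 averaged 1625 ± 216 against 476 ± 35.7 TPM, higher. The lysyl oxidase Lox, a collagen cross-linker, averaged 3.56 ± 0.321 against 119.7 ± 6.23 TPM and fibronectin, Fn1, 47.3 ± 1.64 against 12.8 ± 3.18 TPM. Of 26 tested matrix genes 11 were higher and 10 lower (10 and 10 under every scaling), and of 25 tested adhesion and cytoskeleton genes 15 and 9 (12 and 9). Itgal, a leukocyte integrin chain, averaged 40.5 ± 5.09 against 776 ± 46.6 TPM, lower, while the laminin receptor chain Itga6 averaged 72.2 ± 4.50 against 13.5 ± 0.521 TPM, the tubulin regulator Stmn1 112 ± 6.14 against 8.68 ± 0.712 TPM and the motility-linked calcium binder S100a4 1089 ± 107 against 183 ± 13.6 TPM, all higher.

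Microglial genes linked to pain after nerve injury did not move as a block. Of 25 tested of 27 listed, 13 were higher (9 under every scaling) and 8 lower, with a median log2 difference of 0.27 beside 0.24 for all genes. The lower ones included Il1b, Tnf, Il6 and Ptgs2, given above. The ATP receptors that microglia use in pain signalling differed by less than 2-fold: P2rx4 was at 194, 187 and 186 TPM with SNI sEVs and 217, 233 and 237 TPM with sham sEVs. P2rx4 had a log2 difference of -0.28 ± 0.06 (SE, limma adjusted p = 0.0012). P2rx7 was at 28.2, 28.6 and 28.1 TPM with SNI sEVs and 15.6, 16.7 and 16.2 TPM with sham sEVs. P2rx7 had a log2 difference of 0.77 ± 0.09 (SE, limma adjusted p = 2.4e-05). Neither had overlapping groups, and the directions were opposite. Cathepsin S, Ctss, which frees soluble fractalkine, averaged 4987 ± 240.1 against 3480.1 ± 143 TPM and lost its call under median-of-ratios scaling. The potassium channels Kcna3 and Kcnk13 averaged 4.25 ± 0.682 against 10.1 ± 1.27 TPM and 18.7 ± 1.02 against 8.50 ± 0.149 TPM, and the proton channel Hvcn1 44.0 ± 1.40 against 33.5 ± 1.95 TPM. Bdnf, the growth factor by which spinal microglia are known to act on neurons, was under the filter, at 0.113, 0.0748 and 0.167 TPM with sham sEVs and 0.0742, 0.0585 and 0.140 TPM with SNI sEVs, and its groups overlapped. Genes of vesicle formation and uptake were 9 higher and 4 lower of 21 (6 and 4 under every scaling), and apart from Cd9 none differed 2-fold. The 4 lower became 1 without sham-sEV replicate 2, 2 without SNI-sEV replicate 2 or 3 or sham-sEV replicate 1 or 3, and 7 without PBS replicate 1. Cd63 averaged 499.7 ± 10.1 against 260.5 ± 10.3 TPM, Cd81 273 ± 4.82 against 201 ± 3.11 TPM and the accessory protein Pdcd6ip 138 ± 4.57 against 132 ± 6.43 TPM, which did not pass the test.

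Early-response factors were 11 higher and 10 lower of 23 tested (7 and 10 under every scaling), a share of higher genes near the 49.9% of all genes tested. Their share of lower genes was well above the 15.7% of all genes tested. The phosphatase Dusp2 averaged 1.59 ± 0.368 against 35.4 ± 1.69 TPM and Ier3 20.9 ± 1.73 against 98.5 ± 5.41 TPM, lower, while Egr2 averaged 5.84 ± 0.159 against 1.79 ± 0.114 TPM, higher. Among the 15 largest differences in each direction, the higher genes ran from 12.1-fold to 37.0-fold. They held, besides those described, the G-protein regulator Rgs2 at 338 ± 36.1 against 13.8 ± 1.34 TPM, the Wnt modulator Dkk2 at 34.1 ± 2.77 against 0.615 ± 0.0940 TPM, the Ras activator Rasgrp3 at 160.1 ± 8.83 against 6.71 ± 0.644 TPM, the growth factor binder Igfbp5 at 87.9 ± 7.38 against 3.94 ± 0.367 TPM, the oxysterol-guided receptor Gpr183 at 25.4 ± 2.58 against 1.19 ± 0.264 TPM and the actin binder Lsp1 at 33.0 ± 4.80 against 1.18 ± 0.152 TPM, along with Pcp4l1, Crip1, Sncaip, Mamdc2 and the kinesin Kif23. The lower genes ran from 31.7-fold to 109-fold and held, besides those described, the activating receptor Cd300e at 1.64 ± 0.316 against 134 ± 7.99 TPM.

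**Figure D5:**
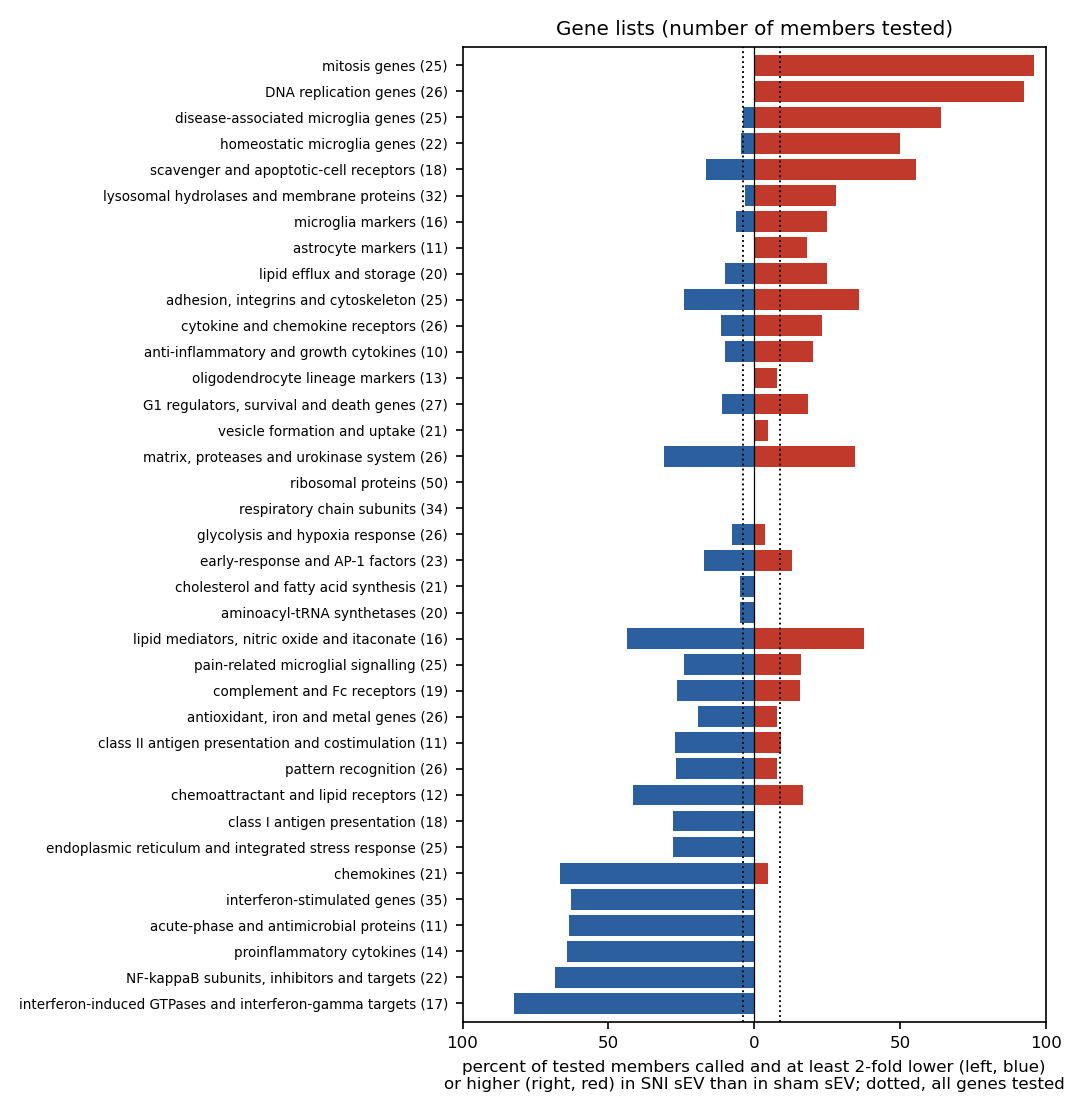
Percent of the tested members of each gene list that were called and differed at least 2-fold, lower in SNI sEV to the left (blue) and higher to the right (red), with the number tested in brackets and dotted lines at the shares of all genes, 3.89% and 8.87%. Mitosis and DNA replication genes are at the top and interferon-induced GTPases, NF-kappaB genes and pro-inflammatory cytokines at the bottom.

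TPM are shares of a fixed total, so the level of the most abundant transcripts bears on all others. Averages reached 1000 TPM in either group for 128 genes, of which 61 were higher and 53 lower. By the size of the difference in TPM, a choice made after their values were seen, Saa3, Ccl5, Fth1, Tmsb4x, Marco and the macrophage adhesion receptor Adgre1 led the genes lower in SNI sEV. Tmsb4x, which sequesters actin, averaged 10545 ± 477 against 19848 ± 774 TPM and Adgre1 1216 ± 107 against 4965 ± 238 TPM. The higher genes were led by Spp1, Ctsd, Lyz2, Apoe, Ctsb and the cathepsin inhibitor Cst3, the last at 5718 ± 548 against 2387 ± 68.4 TPM. The 10 most abundant genes held 17.4% to 17.8% of all TPM in the SNI-sEV libraries and 20.3% to 20.8% in the sham-sEV libraries.

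Markers of other cells summed to far less than the microglia markers and partly moved with the groups. Astrocyte markers summed to 169 to 176 TPM in SNI sEV and 91.8 to 104 TPM in sham sEV, with 10 of 11 tested genes higher and 0 lower, for example Gfap at 24.6 ± 4.59 against 9.58 ± 1.71 TPM. Oligodendrocyte lineage markers summed to 683 to 764 and 451 to 501 TPM, with 13 of 13 higher, of which 5 were so under every scaling. Neuron markers summed to 26.5 to 29.9 and 24.5 to 29.3 TPM. Endothelial markers summed to 30.0 to 32.7 and 16.5 to 19.7 TPM, and fibroblast and mural markers to 31.3 to 35.9 and 7.94 to 8.02 TPM. In either list 2 genes were tested, and the members under the filter did not all follow the sums. Pecam1, Cdh5 and Dcn had larger values with sham sEVs, Dcn at 1.80, 2.09 and 1.79 TPM against 0.0431, 0.0623 and 0.0472 TPM. Others, such as Pdgfrb and Col1a2, had larger values with SNI sEVs. Monocyte markers summed to 4.54 to 4.75 and 2.97 to 3.05 TPM, lymphocyte markers to 1.27 to 1.78 and 0.305 to 0.401 TPM. Erythroid and platelet markers summed to 0.446 to 0.793 and 0.529 to 0.840 TPM, and hepatocyte plasma protein genes to 581 to 625 and 160.1 to 177 TPM. Of the 9 hepatocyte genes, 6 were below 1 TPM in every library, among them Alb, so the sum came from the other 3. In PBS, without vesicles, the same genes summed to 638 to 762 TPM. Border macrophage markers were 3 higher and 3 lower of 6, and summed to 497 to 547 against 664 to 692 TPM. The part of these cells in the differences above was not tested.

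The authors' deposited table of differential genes held 2375 genes, and 2346 of them had a false discovery rate under 0.05 for SNI sEV against sham sEV. Of these, the authors' deposited table gave 1307 as at least 2-fold higher and 623 as at least 2-fold lower. The largest fold changes of the authors' deposited table were 109 for Il6, 104 for Il1a, 64.3 for Lcn2, 54.2 for Ptges and 53.8 for Il1b in the lower direction. In the higher direction the authors' deposited table was led by Plau at 37.0, Hpgd at 25.1 and Rgs2 at 22.9. For all 2285 genes of the authors' deposited table that were tested here, its fold change lay within 0.1% of the fold on the scale of TPM + 1 computed here. Both rest on the same libraries, so this match is no independent support for the differences. No batch is given in the labels, and one that a group's libraries had in common cannot be told apart from the vesicles they received.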

How the data were processed

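Expression was analysed as the TPM (transcripts per 1e+06) that the authors deposited for 10 libraries, each of which summed to 1000000; per the submitters' processing notes the tools were bcl2fastq, BWA, Subread and featureCounts 2.0.2 with the mm10 build, while the annotation and the treatment of reads that map to several genes are not given in the sources used here. The authors' deposited table of comparisons holds a signed fold-change score per gene and a false discovery rate (FDR, an adjusted p-value), per the file headers, and how they were computed is not given there.

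From the TPM, log2(TPM + 1) was fitted per gene with limma 3.58.1 in R 4.3.3, with 1 mean per group over all 10 libraries and a trended variance, for the 14806 genes with a mean of 1 TPM or more. SNI sEV minus sham sEV was tested on both sides, with Benjamini-Hochberg adjustment over these genes and a threshold of 0.05. A fold on the scale of TPM + 1 understates the change of genes near or below 1 TPM. TPM hold no counts, so no count model was used. The fit was tested on simulated data.

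Genes were described by 47 lists, of whose 896 symbols 876 were in the table, and named by rule. The rule took the 15 largest differences in each direction (mean of 5 TPM or more in the higher group, groups without overlap, no predicted genes), key members of each list, up to 4 further called members of a list and up to 3 against its majority, and the 5 largest changes per direction in the authors' deposited table. Some genes that the rule names are not reported here, and list counts include them. The members and lists were chosen with earlier results of these data known. Replicate numbers were not treated as pairs: deviations from the group means correlated at 0.0772, 0.0172 and 0.0733 between libraries with the same number. The alternatives were pseudocounts of 0.1 and 0.5, no filter on low values, a mean of 5 TPM or more, median-of-ratios scaling, quantile normalization, a robust fit, library weights, a fit of the 6 libraries alone, a replicate block, and each library left out. Promoter windows and gene positions came from RefSeq (GRCm38.p6), where 7749 of the tested genes had a single window.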

Additional observations from a re-analysis of the deposited data

Results flagged for a closer look

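In PBS, 2 of the genes whose untreated level is given had 1 library far from the other 3. Irf7 was at 35.45 TPM in PBS replicate 2, against 19.62 to 22.24 TPM in the other PBS libraries. Ifit1 was at 12.17 TPM in the same library, against 5.15 to 5.312 TPM. Chance alone marks about 5% of groups by this criterion, which was applied to 16 PBS values (14 genes, the number of genes at 1 TPM or more and the first principal component). Both TPM values stayed far below all SNI-sEV and sham-sEV values of these genes. The second principal component was not among the 16 values. On it PBS replicate 1 was at 31, against -4.62 to 3.85 in the other PBS libraries. The fit without that library gave 8264 higher and 2622 lower genes.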

How the results depend on the processing

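Counts of calls depended on scaling more than on any other choice tried. Where the deposited TPM gave 7388 higher and 2319 lower genes, the counts were 3921 and 4820 after median-of-ratios scaling and 4373 and 4130 after quantile normalization. At least 2-fold higher were 848 genes with the former and 836 with the latter, against 1314; the cause was not tested. Under the other settings all 4 counts moved by less than 1.5 times, leave-one-library-out fits giving 6623 to 8264 higher and 2012 to 2622 lower genes. With the replicate block, fitted to the 6 libraries alone, 8470 genes were higher and 2765 lower; 5 of 6 libraries correlated best with the library of their own number, a hint from the data and not from the design. Of the 207 called genes named in the report, 197 kept direction and call in every alternative, and 1 turned: Tnfsf9, at a log2 difference of -0.02228 under median-of-ratios scaling. Without read totals, counting error at low TPM cannot be separated from the spread between libraries.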
